A study of Oryctolagus cuniculus with 3 samples.

Results

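The aortic media of non-transgenic JW/CSK rabbits fed a high cholesterol diet was compared with that of non-transgenic JW/CSK rabbits fed chow. All animals were males aged 9 months, and the cholesterol diet lasted 20 weeks. Each group was 1 RNA library made from the pooled RNA of 5 rabbits, so a value is an average over animals and nothing measures the spread between them. Another library, from rabbits that carry a mouse PGC1-alpha transgene and ate the same cholesterol diet for 20 weeks, is given beside the others for selected genes. The labels do not name the promoter or the cells that drive the transgene. With 1 library a group nothing could be tested, and every difference is a description of these libraries. The genes described are the 11597, of 15248 rabbit rows, whose FPKM averaged 1 or more across the 3 libraries (FPKM is the number of fragments scaled to gene length and to all mapped fragments). At that limit the gene KY stood just inside with a mean of 1.00 FPKM and APBA2 just outside with 0.999718. A difference is log2(FPKM + 1) on cholesterol minus log2(FPKM + 1) on chow, in non-transgenic animals, and "2-fold" refers to that scale, on which low genes differ by less than their ratio would give. In what follows, "on cholesterol" and "on chow" mean the 2 non-transgenic libraries.

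The media is the muscular layer of the artery. Its smooth muscle cells hold actin, smooth muscle myosin and calcium stores for contraction, and are anchored to the elastic matrix by dense plaques, which are related to focal adhesions. When cholesterol-rich lipoproteins accumulate in the arterial wall, monocytes enter it and become macrophages that take up lipid, break it down in lysosomes and turn into foam cells, while smooth muscle cells can lose contractile proteins, divide and also store lipid. Rabbits are a classic model of this process because they develop high plasma cholesterol on such a diet.

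The label of the tissue was checked against defining markers. ACTA2, smooth muscle actin, had 5161 FPKM on cholesterol, 6594 in the transgenic library and 12462 on chow, and MYH11, smooth muscle myosin, had 1951 on cholesterol, 3164 in the transgenic library and 6284 on chow. The further defining marker CNN1 was not analysed here. The endothelial marker PECAM1 had 34.6 FPKM on cholesterol and 22.7 on chow, and the fibroblast marker PDGFRA had 13.5 on cholesterol and 14.0 on chow. PI16, the other defining fibroblast marker, did not match PDGFRA. It was listed at 0 on cholesterol, at 298 in the transgenic library and at 411 on chow. All 3 libraries therefore held abundant smooth muscle transcripts and lower levels of the markers of the neighbouring layers. In bulk RNA, fewer cells of a type and less RNA per cell cannot be told apart. The chow library also carries another lane code in its label than both cholesterol libraries, and lane and diet cannot be told apart. FPKM summed over the rabbit rows to 903706 on cholesterol, 824447 in the transgenic library and 943181 on chow. The number of fragments is unknown, but low values of the non-transgenic libraries stood in whole-number ratios times a constant of 1.29. If the FPKM were not scaled between libraries, the cholesterol library was 1.29 times as deep as the chow library.

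Of the 11597 genes, 1846 (15.9%) were at least 2-fold higher on cholesterol than on chow and 811 (6.99%) were at least 2-fold lower. The median difference was 0.02 and the quartiles were -0.40 and 0.56, so the bulk of genes lay on either side of no difference, and 8940 genes (77.1%) were within 2-fold. Most large differences were toward cholesterol: 829 genes were higher and 85 lower by at least 4-fold. Among genes above 0 in both libraries, 304 were at least 8-fold higher and 5 at least 8-fold lower, and 136 were at least 16-fold higher and 2 at least 16-fold lower. Of the 11597 genes, 59 were listed at 0 on cholesterol only, 188 on chow only and 22 in both. An exact 0 in such a table can be a failed estimate, so genes listed at 0 are named by their values and without a fold. They do enter the counts above and those of the lists. Of the 1846 higher genes, 186 were listed at 0 on chow, and of the 811 lower genes, 58 were listed at 0 on cholesterol. Counted with them, 40 genes were at least 8-fold lower, against the 5 above 0 in both libraries. The filter is a mean over 3 libraries of which 2 were on cholesterol, so a gene silent on chow passed it more easily than a gene silent on cholesterol.

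The excess of higher over lower genes was present at every level of abundance. Among 2628 genes with a mean of 1 to 5 FPKM, 21.7% were at least 2-fold higher on cholesterol and 7.34% lower. Among 1028 genes with a mean over 100 FPKM the shares were nearer to each other, with 16.9% higher and 12.1% lower. On the chromosomes of OryCun2.0 the share of genes at least 2-fold higher ran between 11.2% on chromosome 9 and 20.5% on chromosome 8. The mitochondrial genome stood outside that range, with 9 of 15 rows at least 2-fold higher and none lower.

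**Figure D1:**
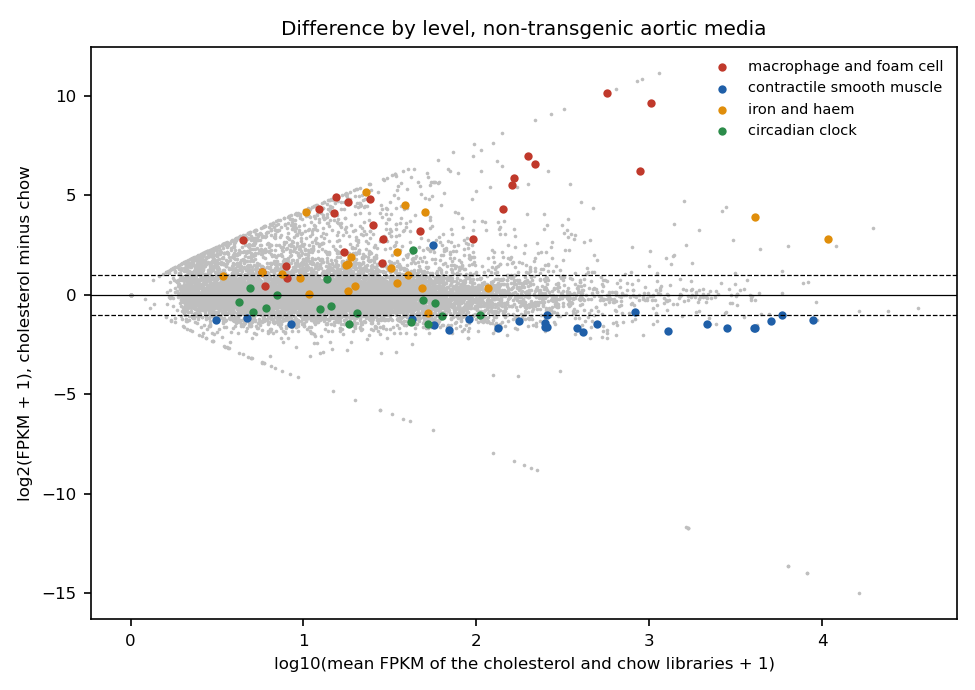
Each point is 1 of 11597 genes, with log10 of the mean FPKM of the cholesterol and chow libraries plus 1 on the horizontal axis and log2(FPKM + 1) on cholesterol minus chow on the vertical axis. Macrophage and foam cell markers lie above 0, contractile smooth muscle genes lie as an abundant band near -1.46 with 1 row above 0, and the straight outer edges are genes listed at 0 in 1 library.

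The most abundant transcripts of the wall were different ones on the 2 diets. On cholesterol the ferritin and thymosin genes and several mitochondrial transcripts took up a larger share of the summed FPKM, and on chow the contractile proteins did. TMSB10, thymosin beta 10, which binds actin monomers (chromosome 2, 101291636 to 101292064), had 20490 FPKM on cholesterol, 14287 in the transgenic library and 3755 on chow, or 2.27% of the summed FPKM on cholesterol and 0.398% on chow. FTH1, the heavy chain of the iron store ferritin, had 18950 on cholesterol, 15928 in the transgenic library and 2757 on chow, and its light chain FTL had 7726 on cholesterol, 5924 in the transgenic library and 509 on chow. Each ferritin chain thus stood above ACTA2 on cholesterol and below it on chow. TMSB10, FTH1 and FTL have processed copies elsewhere in mammalian genomes, and fragments may be shared with them, which leaves their values uncertain.

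Contractile genes held a smaller share on cholesterol. MYL6, the essential light chain of myosin, held 0.598% of the summed FPKM on cholesterol and 1.40% on chow, ACTA2 held 0.571% on cholesterol and 1.32% on chow, and CSRP1, a LIM protein of smooth muscle, held 0.238% on cholesterol and 0.662% on chow. The pool was also spread over more genes on cholesterol: 50% of the summed FPKM lay in the top 122 rows on cholesterol and in the top 88 on chow. NDUFB7, a subunit of respiratory complex I, was listed at 0 in both cholesterol libraries and held 0.344% of the summed FPKM on chow.

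The 15 mitochondrially encoded rows together held 10.9% of the summed FPKM on cholesterol, 9.15% in the transgenic library and 3.06% on chow. They did not differ in parallel. MT-CYB, cytochrome b of complex III, had 3495 FPKM on cholesterol, 2506 in the transgenic library and 366 on chow, a log2 difference of 3.25. MT-CO2, a core subunit of cytochrome c oxidase, had 10738 on cholesterol, 7728 in the transgenic library and 1934 on chow, while MT-ND1 of complex I had 1965 on cholesterol, 2267 in the transgenic library and 1788 on chow. The unnamed rows of the mitochondrial genome nearest its start had 940 and 1151 FPKM on cholesterol against 1146 and 1363 on chow. The libraries were enriched for polyadenylated RNA. MT-ATP8 and MT-ATP6 are placed on the same interval (7796 to 8636) in the deposited table, so their values of 35838 and 7235 FPKM on cholesterol and 3537 and 1486 on chow cannot be separated from each other. MT-ND4L with MT-ND4 (9906 to 11573) and MT-ND5 with MT-ND6 (11772 to 14103) share an interval in the same way. The summed share and the count of mitochondrial rows at least 2-fold higher include such rows.

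**Figure D2:**
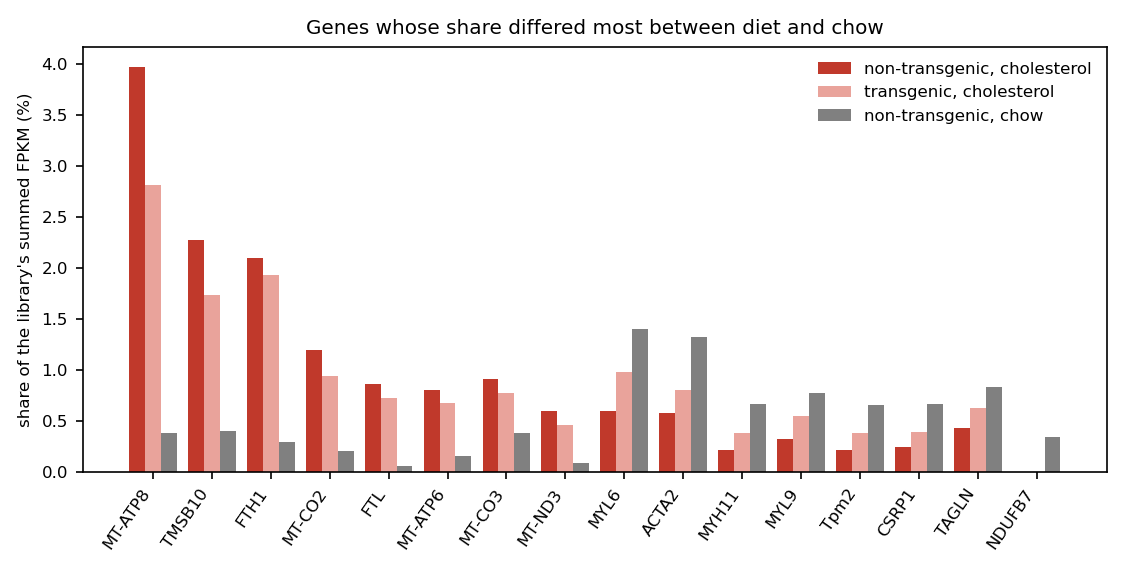
Bars show the share of each library's summed FPKM, in percent, held by the 8 named genes with the largest gain and the 8 with the largest loss of share on cholesterol against chow. TMSB10 stood at 2.27% on cholesterol and 0.398% on chow, and ACTA2 at 0.571% on cholesterol and 1.32% on chow, with the transgenic library between the other bars for each of these genes except NDUFB7, at 0 in both cholesterol libraries.

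Genes that had a symbol, averaged 5 FPKM or more and were above 0 in all 3 libraries were ranked by difference. Among them, the 12 largest differences toward cholesterol were led by GPNMB, LGALS9 and MLANA. GPNMB, a transmembrane glycoprotein of lysosomes and melanosomes (chromosome 10, 8328034 to 8362824), had 2034 FPKM on cholesterol, 2010 in the transgenic library and 1.54 on chow. LGALS9, galectin 9 (chromosome 19, 20276450 to 20290378), had 248 on cholesterol, 219 in the transgenic library and 0.268 on chow. MLANA, known as a melanosome protein of pigment cells (chromosome 1, 48271766 to 48296598), had 212 on cholesterol, 230 in the transgenic library and 0.356 on chow. All 3 were under 2 FPKM on chow and among the abundant transcripts in both cholesterol libraries.

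The other genes at this end included secreted enzymes, proteases, receptors and the actin-bundling LCP1. CHIT1, the chitinase secreted by lipid-storing macrophages (chromosome 16, 68560131 to 68570017), had 85.0 FPKM on cholesterol, 60.9 in the transgenic library and 0.0674 on chow. CTSE, the aspartic protease cathepsin E, had 118 on cholesterol, 35.1 in the transgenic library and 0.0692 on chow, and HAVCR1, a receptor for phosphatidylserine on dying cells, had 134 on cholesterol, 114 in the transgenic library and 0.710 on chow. Of the 12 genes at this end, CTSE had the transgenic value that lay farthest, as a ratio, from its value on cholesterol. SPP1, osteopontin, a secreted adhesion protein, was already measurable on chow, with 1740 FPKM on cholesterol, 1493 in the transgenic library and 22.1 on chow.

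At the other end of that ranking, the 12 largest differences toward chow were of moderate abundance and mixed function. The floor of 5 FPKM kept less abundant genes out. The 2 genes above 0 in both libraries that were at least 16-fold lower stood outside the ranking. PFN2, an actin monomer binding profilin (chromosome 14, 43803695 to 43806596), had 1.30 on cholesterol, 4.02 in the transgenic library and 18.4 on chow, and PTGR1, a prostaglandin reductase, had 5.60 on cholesterol, 20.8 in the transgenic library and 48.5 on chow. C1QTNF3, a secreted protein of the C1q and TNF family, had 2.11 on cholesterol, 7.78 in the transgenic library and 21.8 on chow. For 11 of these 12 genes the transgenic value lay between the others. The exception was CA3, carbonic anhydrase 3 of muscle and fat, with 1.54 on cholesterol, 0.667 in the transgenic library and 14.6 on chow.

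**Figure D3:**
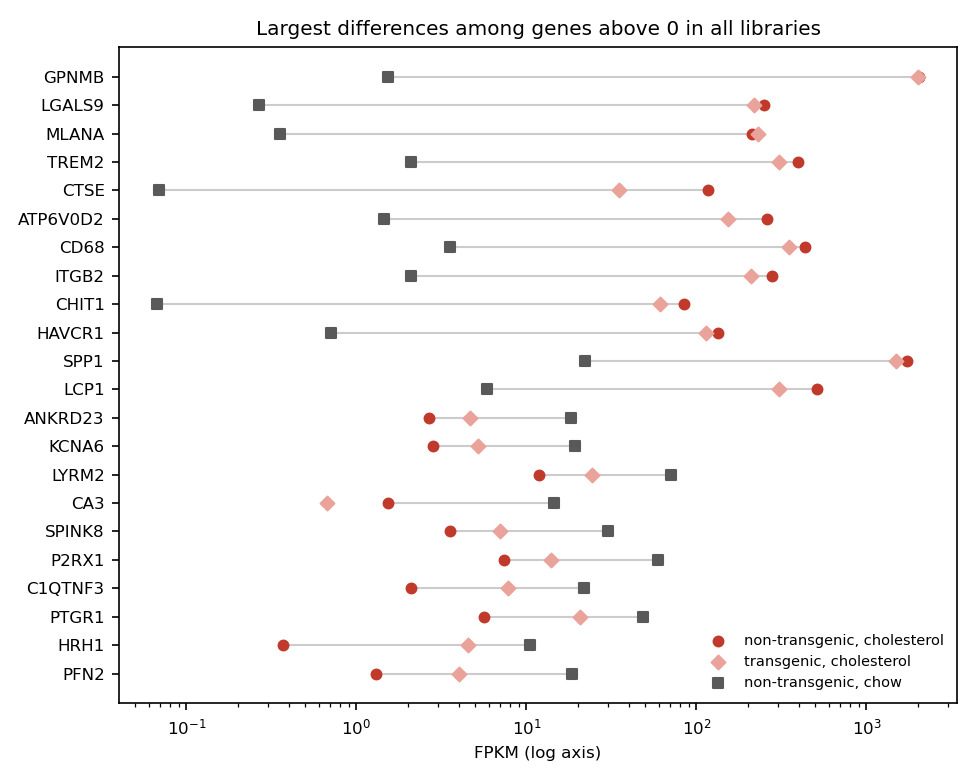
FPKM on a log axis of the genes with the highest and lowest differences among those that had a symbol, averaged 5 FPKM or more and were above 0 in all 3 libraries. Circles are the non-transgenic cholesterol library, diamonds the transgenic cholesterol library and squares the non-transgenic chow library. GPNMB is the farthest apart, at 2034 FPKM on cholesterol and 1.54 on chow, and the genes lower on cholesterol had 10.5 to 70.8 FPKM on chow.

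Gene lists were then described by counts and medians, to be read against 15.9% higher, 6.99% lower and a median of 0.02 over all genes. The 55 lists together had 950 measured rows, and where a list is near absent on chow its counts describe the members that passed the filter. The contractile list, a marker list of smooth muscle, had 24 of 26 measured rows at least 2-fold lower on cholesterol and 1 higher, with a median of -1.46. The higher row is the less abundant of those named TPM1, at 94.2 FPKM on cholesterol, 72.9 in the transgenic library and 15.8 on chow. The summed FPKM of the contractile list was 21069 on cholesterol, 31012 in the transgenic library and 54831 on chow. The macrophage and foam cell list, of 28 symbols, had 22 of 24 measured members at least 2-fold higher, none lower and a median of 4.21, with a summed FPKM of 7262 on cholesterol, 6267 in the transgenic library and 128 on chow. Its defining markers CD68, CSF1R and TREM2 had 434, 83.7 and 393 FPKM on cholesterol against 3.56, 8.30 and 2.10 on chow, and none of them was at 0. The part that these cell mixtures play in each of the differences below was not tested.

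Transcription factors of the contractile program had members near the contractile median as well as members close to chow. Of 26 smooth muscle transcription factors and cofactors, 6 were at least 2-fold lower and none 2-fold higher, with a median of -0.67. SRF, the factor that binds the promoters of contractile genes, had 53.8 FPKM on cholesterol, 73.8 in the transgenic library and 114 on chow. Its partner MYOCD, which the contractile list also holds, had 28.7 on cholesterol, 42.6 in the transgenic library and 83.9 on chow. The other cofactors of SRF, named here by their older symbols MKL1 and MKL2, differed little, with MKL1 at 9.76 on cholesterol and 9.30 on chow and MKL2 at 8.75 on cholesterol and 6.20 on chow. Developmental factors of the vessel wall such as GATA6, with 14.6 on cholesterol and 21.8 on chow, and TBX18, with 13.5 on cholesterol and 24.2 on chow, were within 2-fold.

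Genes of calcium handling had members past 2-fold in both directions. Of 25 measured, 10 were at least 2-fold lower on cholesterol and 4 at least 2-fold higher, with a median of -0.74. PLN, phospholamban, which restrains the calcium pump, had 564 FPKM on cholesterol, 936 in the transgenic library and 1997 on chow. JPH2, which ties the calcium store to the cell membrane, had 79.6 on cholesterol, 134 in the transgenic library and 251 on chow, and CACNA1C, the pore of the L-type calcium channel, had 6.17 on cholesterol, 9.14 in the transgenic library and 18.8 on chow. The members at least 2-fold higher were ORAI1 and STIM2 of store-operated calcium entry, the inositol trisphosphate receptor ITPR2 and the plasma membrane pump ATP2B1. ORAI1 had 15.7 on cholesterol, 15.2 in the transgenic library and 4.41 on chow, whereas the smooth muscle receptor ITPR1 had 28.3 on cholesterol and 42.6 on chow.

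The relaxation pathway was lower in part. In the nitric oxide and cyclic GMP list 6 of 16 members were at least 2-fold lower and none 2-fold higher, with a median of -0.62. NPR1, the receptor of natriuretic peptides, had 66.4 FPKM on cholesterol, 97.6 in the transgenic library and 209 on chow, and PRKG1, the cyclic GMP dependent kinase, had 51.5 on cholesterol, 66.2 in the transgenic library and 113 on chow. The subunits of the nitric oxide receptor, GUCY1A3 and GUCY1B3, were nearer to chow, at 35.6 and 28.2 on cholesterol against 47.0 and 40.96 on chow. Among the genes that regulate myosin phosphorylation, the kinase PAK1 had 10.99 on cholesterol, 7.92 in the transgenic library and 0.640 on chow. RHOA stood at 704 on cholesterol and 431 on chow, while its effector ROCK1 stood at 72.1 on cholesterol and 158 on chow.

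Receptors of constrictor agonists showed the widest spread of the smooth muscle lists on the lower side. Of 18 measured, 4 were at least 2-fold lower, 3 at least 2-fold higher and the median was -0.54. HRH1, the histamine H1 receptor, had 0.372 FPKM on cholesterol, 4.51 in the transgenic library and 10.5 on chow, and the ATP-gated channel P2RX1 had 7.33 on cholesterol, 13.9 in the transgenic library and 59.3 on chow. The adrenergic receptor ADRA1A had 11.01 on cholesterol, 16.2 in the transgenic library and 41.1 on chow. In contrast, the nucleotide receptors P2RY6 and P2RY2 and the serotonin receptor HTR1B were the 3 at least 2-fold higher, with HTR1B at 28.5 on cholesterol, 22.9 in the transgenic library and 9.55 on chow. The receptors of endothelin (EDNRA, 2.91 on cholesterol and 3.37 on chow) and angiotensin II (AGTR1, 6.90 on cholesterol and 10.8 on chow) were within 2-fold.

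The membrane scaffold of the smooth muscle cell was lower as a whole. Of 20 genes of caveolae and the dystrophin complex, 12 were at least 2-fold lower, none was 2-fold higher and all 20 were below 0, with a median of -1.03 that scaling the libraries to the same sum brought inside 2-fold. SGCD, a sarcoglycan of muscle membranes, had 79.1 FPKM on cholesterol, 115 in the transgenic library and 202 on chow. PTRF, also called cavin 1, which coats caveolae, had 640 on cholesterol, 997 in the transgenic library and 1580 on chow, and DMD, dystrophin, had 30.3 on cholesterol, 45.3 in the transgenic library and 66.6 on chow. The member nearest to 0 was SNTB1, at 5.10 on cholesterol and 5.44 on chow. In the focal adhesion and dense plaque list 13 of 33 members were lower and 2 higher, with a median of -0.87. The higher members were LASP1, an actin-binding LIM protein, at 149 on cholesterol, 114 in the transgenic library and 23.8 on chow, and LIMS1, at 121 on cholesterol and 59.8 on chow, while its close relative LIMS2 had 228 on cholesterol, 312 in the transgenic library and 692 on chow.

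Potassium channels, which set the membrane potential, also had members past 2-fold in both directions. Of 16 potassium channel genes 5 were at least 2-fold lower and 4 higher. KCNMA1, the large calcium-activated channel of smooth muscle, had 65.9 FPKM on cholesterol, 106 in the transgenic library and 189 on chow, and KCNA5 had 43.1 on cholesterol, 77.2 in the transgenic library and 137 on chow. KCNQ1, the channel best known from the heart, had 7.87 on cholesterol, 7.33 in the transgenic library and 0.145 on chow. RGS proteins switch off G protein signals, and 7 of 15 RGS rows passed the filter. Of these 7 genes 4 were at least 2-fold higher and none lower, with a median of 1.05. That median passed 2-fold only with RGS1, which had 18.2 on cholesterol, 14.4 in the transgenic library and was listed at 0 on chow. Without RGS1 the median was 0.52. RGS10, which is abundant in leukocytes, had 206 on cholesterol, 153 in the transgenic library and 20.9 on chow, and RGS5, a marker of arterial smooth muscle and pericytes, was within 2-fold at 3327 on cholesterol, 4478 in the transgenic library and 6502 on chow.

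**Figure D4:**
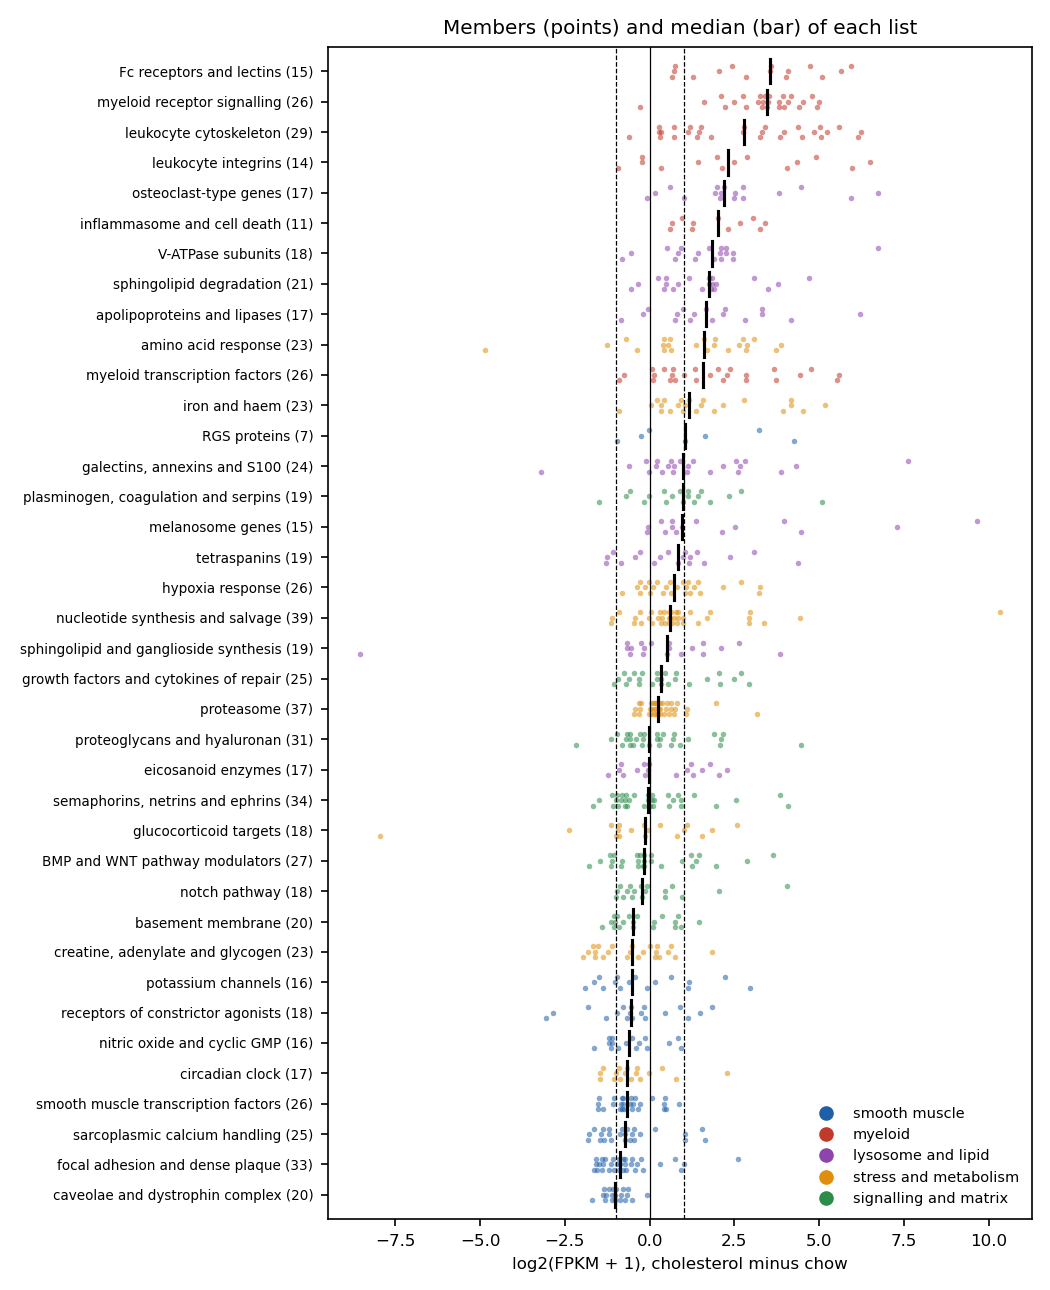
Each point is a measured gene of a list other than cell type markers, at log2(FPKM + 1) on cholesterol minus chow, with the median as a bar, dashed lines at 2-fold and the number of measured genes in parentheses. Myeloid and lysosomal lists lie to the right, with Fc receptors and lectins at a median of 3.55, and the smooth muscle lists shown other than RGS proteins have medians left of 0, with caveolae and the dystrophin complex at -1.03.

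Pairs of related genes showed which member of a family carried each difference. Of 32 pairs of a leukocyte form and a more widely expressed form, 26 had both members measured. The leukocyte form was at least 2-fold higher in 25 pairs, with a median difference of 3.66, and the general form in 4, with a median of -0.15. LCP1, the plastin of leukocytes that bundles actin, had 513 FPKM on cholesterol, 304 in the transgenic library and 5.88 on chow, while its general relative PLS3 had 159 on cholesterol, 169 in the transgenic library and 226 on chow. LCP1 thus made up 76.3% of the pair's FPKM on cholesterol and 2.53% on chow. The integrin chain ITGB2 had 276 on cholesterol, 210 in the transgenic library and 2.09 on chow, and ITGB1 had 935 on cholesterol, 1053 in the transgenic library and 1613 on chow.

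The same division held for signalling enzymes. The tyrosine phosphatase PTPN6 of blood cells had 107 FPKM on cholesterol, 77.1 in the transgenic library and 2.49 on chow, and its general relative PTPN11 had 42.0 on cholesterol, 38.7 in the transgenic library and 70.2 on chow. The small GTPase RAC2 had 116 on cholesterol, 92.2 in the transgenic library and 1.42 on chow, and RAC1 had 188 on cholesterol, 188 in the transgenic library and 198 on chow. In 3 pairs the form entered as the leukocyte one did not lie above its partner. They include PFKP with PFKM, at log2 differences of -1.33 and -0.75, and PIK3CD with PIK3CB, at 1.61 and 2.23. PFKP is a platelet form of phosphofructokinase.

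There were 16 measured pairs of a muscle form and a general form, in which MYH11 and TPM2 each enter 2 pairs. The difference of the form entered as the muscle one lay below that of its partner in 15 pairs, and by at least 2-fold in 11. The exception was ACTN1 with ACTN4, at log2 differences of -0.53 and -1.40, and no value here marks ACTN1 as the muscle form. The muscle form was at least 2-fold lower on cholesterol than on chow in 14 pairs. The median differences were -1.54 for the muscle and -0.03 for the general forms. MYH9, the non-muscle myosin, had 167 FPKM on cholesterol, 117 in the transgenic library and 73.9 on chow, against the lower MYH11 values given above. LMOD1, an actin nucleator of smooth muscle, had 179 on cholesterol, 340 in the transgenic library and 653 on chow, and TMOD3, a general tropomodulin, had 45.3 on cholesterol, 41.9 in the transgenic library and 26.5 on chow. The integrin chain ITGA8 of smooth muscle had 340 on cholesterol, 597 in the transgenic library and 964 on chow, and the fibronectin receptor chain ITGA5 had 68.4 on cholesterol, 53.8 in the transgenic library and 35.9 on chow. Of the general forms, 4 were at least 2-fold higher and 2 at least 2-fold lower. Non-muscle MYH9 was far less abundant than MYH11 in every library, and MYH11 made up 92.1% of that pair on cholesterol and 98.8% on chow.

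**Figure D5:**
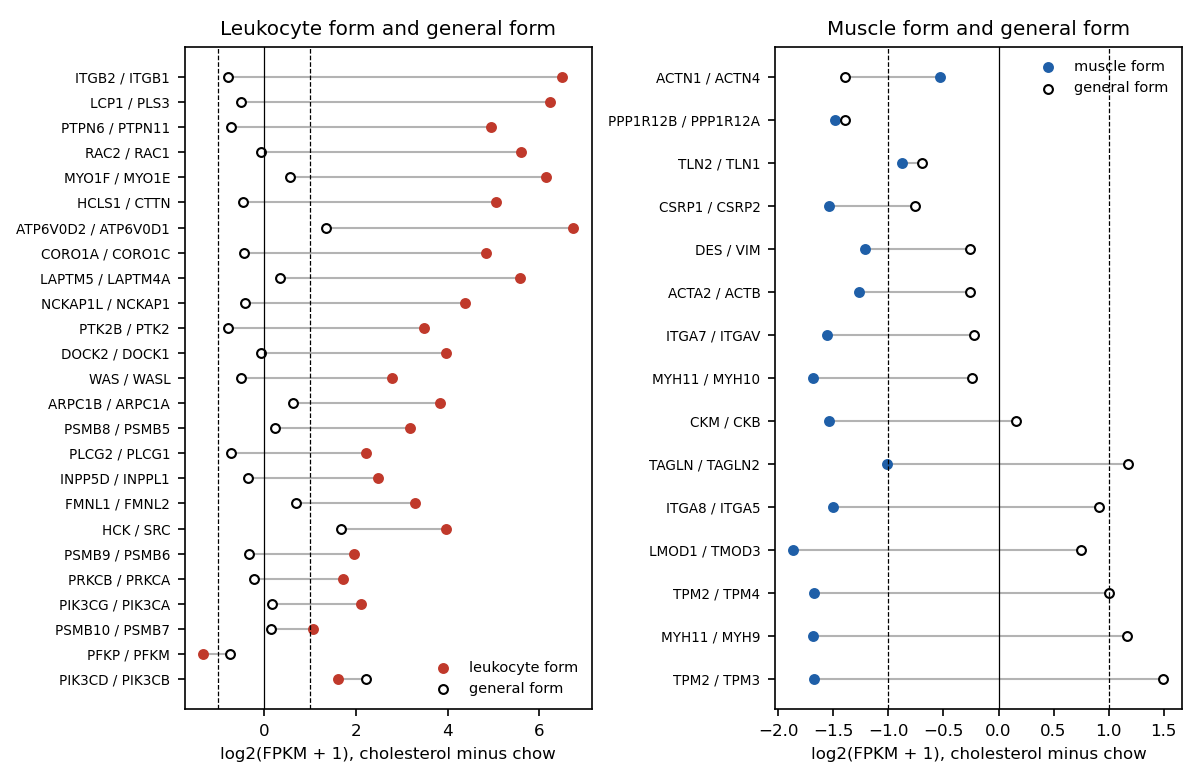
For pairs of related genes, filled circles give the log2 difference, cholesterol minus chow, of the leukocyte form (left panel) or the muscle form (right panel), and open circles that of the more widely expressed form; dashed lines mark 2-fold. Leukocyte forms reached 6.74 (ATP6V0D2) while most general forms lay near 0. ACTN1 with ACTN4 is the pair in which the form entered as the muscle one lay above its partner.

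Myeloid transcription factors included genes near absent on chow and genes at their chow level. Of 26 myeloid transcription factors 16 were at least 2-fold higher, none was 2-fold lower and the median was 1.57. SPI1, also called PU.1, the factor that commits cells to the myeloid lineage, had 46.7 FPKM on cholesterol, 28.9 in the transgenic library and was listed at 0 on chow. IRF5, which drives inflammatory cytokine genes, had 105 on cholesterol, 73.1 in the transgenic library and 1.31 on chow, and IRF8 had 43.5 on cholesterol, 39.4 in the transgenic library and 1.05 on chow. RUNX1 had 15.0 on cholesterol, 6.71 in the transgenic library and 0.270 on chow. The lysosomal regulators TFEB and TFE3 were close to chow, with TFEB at 16.3 on cholesterol and 14.8 on chow and TFE3 at 31.9 on cholesterol and 29.6 on chow, while their relative TFEC had 7.001 on cholesterol, 5.25 in the transgenic library and 0.106 on chow.

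In the signalling chain downstream of myeloid receptors, 26 genes were measured and 25 were at least 2-fold higher, none was lower and the median was 3.47. The adaptor TYROBP, which carries the signal of TREM2, had 46.1 FPKM on cholesterol, 41.9 in the transgenic library and 0.695 on chow, and the kinase SYK that it recruits had 22.7 on cholesterol, 18.4 in the transgenic library and 0.320 on chow. The pan-leukocyte phosphatase PTPRC, known as CD45, had 38.5 on cholesterol, 24.2 in the transgenic library and 0.881 on chow. The inhibitory adaptors DOK2 and DOK3 were high as well, with DOK3 at 37.4 on cholesterol, 25.9 in the transgenic library and 0.212 on chow. The remaining gene, FES, shares its row with MAN2A2 and had 92.2 on cholesterol and 112 on chow.

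Immune receptors and adhesion molecules, some of which other cells of the wall also carry, come next. Of 15 Fc receptors and lectins 12 were at least 2-fold higher and none lower, with a median of 3.55. SIGLEC15, a sialic acid receptor of macrophages and osteoclasts, had 81.8 FPKM on cholesterol, 62.0 in the transgenic library and 0.362 on chow, and PILRA, an inhibitory receptor, had 89.7 on cholesterol, 54.3 in the transgenic library and 0.796 on chow. CLEC7A, the receptor of fungal glucans also called dectin 1, had 12.2 on cholesterol, 9.12 in the transgenic library and 0.122 on chow. Of 14 leukocyte integrins and their ligands 10 were higher, with ITGAL at 66.6 on cholesterol, 52.9 in the transgenic library and 0.0816 on chow, and ITGB5, a partner of ITGAV, was at 131 on cholesterol and 252 on chow.

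The leukocyte cytoskeleton and the inflammasome lists had medians of 2.79 and 2.01. In the first, 22 of 29 members were at least 2-fold higher, among them MYO1F, a class I myosin of leukocytes, at 102 FPKM on cholesterol, 75.2 in the transgenic library and 0.459 on chow, and CAPG, which caps actin filaments, at 193 on cholesterol, 161 in the transgenic library and 4.19 on chow. In the inflammasome and cell death list 8 of 11 were higher. The sensor NLRP3 had 7.31 on cholesterol, 4.40 in the transgenic library and 0.691 on chow, the adaptor PYCARD had 18.4 on cholesterol, 15.5 in the transgenic library and 1.04 on chow, and CASP1, the protease that cuts interleukin 1 beta, had 5.92 on cholesterol, 4.46 in the transgenic library and 0.102 on chow. IL18, a substrate of that protease, was measurable in all 3 libraries, at 46.8 on cholesterol, 60.1 in the transgenic library and 29.5 on chow.

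Genes of lysosomal acidification lay mostly above chow. Of 18 subunits and accessory proteins of the V-ATPase, the pump that acidifies lysosomes, 12 were at least 2-fold higher and none lower, with a median of 1.83. ATP6V0D2, the form of the d subunit found in osteoclasts and macrophages (chromosome 3, 101581452 to 101636320), had 261 FPKM on cholesterol, 152 in the transgenic library and 1.45 on chow. The catalytic subunit ATP6V1A had 62.3 on cholesterol, 47.5 in the transgenic library and 10.5 on chow. Subunits of the other kind, ATP6V1G2 and ATP6V0E2, which are best known from brain, had 2.90 and 12.2 on cholesterol against 5.82 and 18.4 on chow.

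Genes known from bone-resorbing osteoclasts and from pigment cells were part of this picture. Of 17 osteoclast-type genes 14 were at least 2-fold higher and none lower, with a median of 2.19. CTSK, the collagen-cleaving cathepsin K, had 2764 FPKM on cholesterol, 2111 in the transgenic library and 491 on chow, SNX10 had 39.9 on cholesterol, 27.03 in the transgenic library and 0.842 on chow, and CA2, the carbonic anhydrase that supplies protons, had 14.7 on cholesterol, 8.39 in the transgenic library and 0.115 on chow. NFATC1, the master factor of osteoclasts, was within 2-fold, at 19.0 on cholesterol and 12.2 on chow. The melanosome list was uneven: 7 of 15 were at least 2-fold higher, with GPNMB and MLANA at the top and RAB38, a GTPase of melanosome transport, at 20.6 on cholesterol, 10.3 in the transgenic library and 0.395 on chow. MITF, the pigment cell factor that is also active in macrophages, had 29.0 on cholesterol, 27.2 in the transgenic library and 17.9 on chow.

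Enzymes that degrade sphingolipids were higher while those that make them were mixed. Of 21 degradation genes 13 were at least 2-fold higher and none lower, with a median of 1.76. PSAP, the precursor of the saposins that present lipids to these enzymes, had 2198 FPKM on cholesterol, 2297 in the transgenic library and 564 on chow, and HEXA, which trims gangliosides, had 575 on cholesterol, 592 in the transgenic library and 50.5 on chow. SPHK1, the kinase that makes sphingosine 1-phosphate, had 29.5 on cholesterol, 16.3 in the transgenic library and 0.183 on chow, and SGPL1, the lyase that destroys it, had 99.6 on cholesterol, 74.8 in the transgenic library and 6.32 on chow. Of 19 synthesis genes 6 were higher and 1 lower, with a median of 0.52. ST3GAL5, which makes the ganglioside GM3, had 31.6 on cholesterol, 28.3 in the transgenic library and 1.27 on chow. The lower one, SPTSSA, a small subunit of the first enzyme, was listed at 0 in both cholesterol libraries and at 374 on chow.

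Apolipoproteins, lipases and cholesterol transporters of the lysosome were mostly higher: 11 of 17 passed 2-fold and none was 2-fold lower, for a median of 1.65. LIPA, the lysosomal acid lipase that frees cholesterol from its esters, had 299.98 FPKM on cholesterol, 316 in the transgenic library and 29.1 on chow. PLTP, which transfers phospholipids between lipoproteins, had 246 on cholesterol, 226 in the transgenic library and 23.8 on chow, and SOAT1, which re-esterifies cholesterol for storage in droplets, had 38.8 on cholesterol, 28.3 in the transgenic library and 7.94 on chow. APOC1 had 73.4 on cholesterol and 40.9 in the transgenic library and was listed at 0 on chow. LCAT, the plasma enzyme that esterifies cholesterol, was on the other side within 2-fold, at 11.2 on cholesterol and 20.7 on chow.

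Eicosanoid enzymes had a median of -0.03, which lay above 0 under either scaling of the libraries to the same sum and with no filter on low values. Of 17 genes 7 were at least 2-fold higher, from both the leukotriene and the prostanoid branch, among them ALOX5 of leukotriene synthesis, at 11.5 FPKM on cholesterol, 12.9 in the transgenic library and 1.59 on chow, and TBXAS1, the thromboxane synthase, at 4.09 on cholesterol, 3.86 in the transgenic library and 0.232 on chow. PTGIS, the prostacyclin synthase of smooth muscle and endothelium, had 73.5 on cholesterol, 63.6 in the transgenic library and 127 on chow, and PTGES, a prostaglandin E synthase, was the member at least 2-fold lower, at 4.43 on cholesterol, 11.4 in the transgenic library and 11.6 on chow. Galectins, annexins and S100 proteins had 12 of 24 at least 2-fold higher and 1 lower, with a median of 0.99. LGALS3 had 271 on cholesterol, 169 in the transgenic library and 12.6 on chow, whereas the smooth muscle galectin LGALS1 had 3697 on cholesterol and 2558 on chow. Of 19 tetraspanins 8 were higher and 3 lower, with CD53 of leukocytes at 56.7 on cholesterol, 44.8 in the transgenic library and 1.79 on chow, and TSPAN2 at 17.4 on cholesterol, 25.3 in the transgenic library and 42.7 on chow.

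Iron and haem genes were higher beyond ferritin. Of 23 measured 13 were at least 2-fold higher and none lower, with a median of 1.16, and the list held 3.04% of the summed FPKM on cholesterol, 2.74% in the transgenic library and 0.387% on chow, most of it ferritin. FLVCR2, a membrane carrier of the haem transporter family, had 43.8 FPKM on cholesterol, 39.97 in the transgenic library and 0.249 on chow, and CP, ceruloplasmin, which oxidises iron for export, had 72.7 on cholesterol, 27.9 in the transgenic library and 2.22 on chow. TFRC, the transferrin receptor through which cells take up iron, had 55.8 on cholesterol, 46.5 in the transgenic library and 11.7 on chow. The iron exporter SLC40A1, ferroportin, was within 2-fold, at 41.3 on cholesterol, 63.2 in the transgenic library and 26.6 on chow. TF, transferrin, and HFE, a regulator of iron uptake, were within 2-fold as well.

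Hypoxia genes had 11 of 26 at least 2-fold higher and none lower, with a median of 0.72. VEGFA, the growth factor of blood vessels, had 51.9 FPKM on cholesterol, 19.7 in the transgenic library and 7.21 on chow, HK2, a hexokinase, had 33.8 on cholesterol, 20.3 in the transgenic library and 2.72 on chow, and PFKFB3, an activator of glycolysis, had 68.4 on cholesterol, 48.5 in the transgenic library and 6.32 on chow. Other common targets of the same pathway stayed close to chow, with SLC2A1 at 31.8 on cholesterol and 34.9 on chow and ADM at 3.90 on cholesterol and 5.01 on chow. HIF1A itself had 314 on cholesterol, 230 in the transgenic library and 179 on chow.

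The amino acid response, the program of genes under ATF4 for amino acid uptake and serine synthesis, had 13 of 23 members at least 2-fold higher and 2 lower, with a median of 1.60. PSAT1 of serine synthesis had 16.8 FPKM on cholesterol, 2.23 in the transgenic library and 0.208 on chow, and SHMT2, which passes serine carbon to folate in mitochondria, had 16.6 on cholesterol, 5.29 in the transgenic library and 1.06 on chow. MTHFD2, the next step in that path, had 69.9 on cholesterol, 30.9 in the transgenic library and 10.4 on chow. For these 3 enzymes the transgenic library stood well under the cholesterol library while above chow, whereas PHGDH, the first enzyme of serine synthesis, had 19.97 on cholesterol, 4.20 in the transgenic library and 5.44 on chow. ASNS, asparagine synthetase, a standard member of the program, was within 2-fold at 4.51 on cholesterol and 2.55 on chow, and NUPR1 was listed at 0 on cholesterol, at 49.0 in the transgenic library and at 27.8 on chow.

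Clock genes lay mostly below chow. Of 17 measured 5 were at least 2-fold lower and 1 higher, with a median of -0.66. NR1D1, the repressor also called REV-ERB alpha, had 27.2 FPKM on cholesterol, 29.6 in the transgenic library and 76.1 on chow, and CRY2 had 8.72 on cholesterol, 15.5 in the transgenic library and 26.1 on chow. The output factors HLF and TEF had 22.2 and 40.03 on cholesterol against 59.4 and 84.5 on chow. ARNTL, known as BMAL1, which peaks opposite to NR1D1 in the daily cycle, was within 2-fold, at 2.62 on cholesterol and 5.60 on chow. BHLHE40 was the higher member, at 70.1 on cholesterol, 41.1 in the transgenic library and 13.7 on chow. The labels give no hour of tissue collection.

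Glucocorticoid targets had a median of -0.15, which lay above 0 when the libraries were scaled without mitochondrially encoded rows, with 5 of 18 at least 2-fold higher and 4 lower. PDK4 had 9.74 FPKM on cholesterol, 8.24 in the transgenic library and 0.790 on chow, and HSD11B1, which regenerates active glucocorticoid, had 3.63 on cholesterol, 9.04 in the transgenic library and 23.0 on chow. The receptor NR3C1 had 34.4 on cholesterol, 43.2 in the transgenic library and 69.9 on chow. The proteasome was close to chow as a whole, with 4 of 37 higher, none lower and a median of 0.24. PSMB8, PSMB9 and PSMB10, the catalytic subunits of the immunoproteasome, were 3 of those 4, with PSMB8 at 30.8 on cholesterol, 19.5 in the transgenic library and 2.51 on chow.

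Energy storage genes of muscle had a median below 0, and nucleotide genes one above 0. Of 23 creatine, adenylate and glycogen genes 9 were at least 2-fold lower and 1 higher, with a median of -0.51. PYGM, muscle glycogen phosphorylase, had 16.9 FPKM on cholesterol, 26.4 in the transgenic library and 69.2 on chow, and PGM5, which lies in dense plaques, had 238 on cholesterol, 372 in the transgenic library and 839 on chow. Of 39 nucleotide synthesis and salvage genes 10 passed 2-fold toward cholesterol and 2 toward chow, with a median of 0.61. RRM2, a subunit of ribonucleotide reductase, had 13.7 on cholesterol, 5.57 in the transgenic library and 0.428 on chow. Of the salvage enzymes, PNP had 56.2 on cholesterol, 35.7 in the transgenic library and 6.45 on chow and HPRT1 had 31.3 on cholesterol, 26.8 in the transgenic library and 3.19 on chow, but ADA, adenosine deaminase, was among the lower members at 8.01 on cholesterol, 14.2 in the transgenic library and 18.5 on chow. DHODH of the new synthesis of pyrimidines had 4.23 on cholesterol and 4.31 on chow. The proliferation markers had 25 of 27 members at least 2-fold higher and none lower, with a median of 2.29.

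Of 25 growth factors and cytokines of repair 7 were at least 2-fold higher and 1 lower, with a median of 0.34. CSF1, the survival factor of macrophages, had 112 FPKM on cholesterol, 73.9 in the transgenic library and 26.1 on chow, and IL34, the other ligand of the same receptor, had 21.5 on cholesterol, 15.5 in the transgenic library and 4.45 on chow. PDGFB, a mitogen of smooth muscle, had 8.62 on cholesterol, 8.47 in the transgenic library and 0.714 on chow, against PDGFA at 25.8 on cholesterol and 24.7 on chow. TGFB1 had 35.9 on cholesterol, 24.95 in the transgenic library and 10.5 on chow, whereas TGFB3 had 53.0 on cholesterol and 66.1 on chow. The member at least 2-fold lower was FIGF, also called VEGFD, at 6.44 on cholesterol and 14.6 on chow.

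Modulators of the BMP and WNT pathways had members at both ends, with 7 of 27 at least 2-fold higher, 6 lower and a median of -0.17. CHRDL2, a BMP antagonist, had 40.8 FPKM on cholesterol, 23.6 in the transgenic library and 2.34 on chow, and SFRP1, a WNT antagonist, had 22.1 on cholesterol, 8.46 in the transgenic library and 2.17 on chow. SOST, sclerostin, had 10.4 on cholesterol, 24.9 in the transgenic library and 38.4 on chow, and the WNT target AXIN2 had 3.45 on cholesterol, 4.94 in the transgenic library and 8.88 on chow. In the notch list 2 of 18 were higher and none lower by 2-fold, with a median of -0.23. NOTCH3, the receptor of smooth muscle, had 20.7 on cholesterol and 24.3 on chow, while MFNG, an enzyme that modifies the receptors, had 97.1 on cholesterol, 87.7 in the transgenic library and 4.87 on chow.

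Of 20 basement membrane genes 5 were at least 2-fold lower and 1 higher, with a median of -0.49. The lowest were NPNT, nephronectin, at 96.7 on cholesterol, 109 in the transgenic library and 256 on chow, and HSPG2, perlecan, at 242 on cholesterol, 271 in the transgenic library and 539 on chow. Among the laminins, LAMA4 had 65.6 FPKM on cholesterol, 82.6 in the transgenic library and 137 on chow, LAMB2 had 124 on cholesterol, 170 in the transgenic library and 253 on chow, and LAMB1 was the higher member at 52.2 on cholesterol, 36.2 in the transgenic library and 18.6 on chow. COL4A1 had 693 on cholesterol, 477 in the transgenic library and 414 on chow, within 2-fold. Proteoglycans had a median of -0.01, above 0 under either scaling to the same sum, with 6 of 31 higher and 2 lower. SRGN, the proteoglycan of leukocyte granules, had 42.3 on cholesterol, 37.6 in the transgenic library and 0.969 on chow, CD44, the hyaluronan receptor, had 155 on cholesterol, 96.7 in the transgenic library and 33.7 on chow, and GPC3 had 1.98 on cholesterol, 4.41 in the transgenic library and 12.4 on chow.

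Proteolysis and guidance genes complete the signalling lists. Of 19 plasminogen, coagulation and serpin genes 9 passed 2-fold toward cholesterol and 1 toward chow, with a median of 0.97. PLAU, urokinase, had 118 FPKM on cholesterol, 94.9 in the transgenic library and 17.4 on chow, and its receptor PLAUR had 33.1 on cholesterol and 22.7 in the transgenic library and was listed at 0 on chow. F3, tissue factor, the starter of coagulation, was the lower member, at 10.4 on cholesterol, 13.8 in the transgenic library and 30.8 on chow. Of 34 semaphorins, netrins and ephrins 5 were higher and 4 lower, and their median of -0.05 lay above 0 under either scaling to the same sum. SEMA4D, which leukocytes carry, had 31.6 on cholesterol, 25.7 in the transgenic library and 1.28 on chow, while SEMA3C, a guidance signal of the developing outflow tract, had 57.3 on cholesterol, 81.8 in the transgenic library and 114 on chow.

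Markers of other cells that the wall could hold differed by cell type. T cell markers were sparse, with CD3E at 2.81 FPKM on cholesterol, 1.13 in the transgenic library and 2.20 on chow, and 2 of 5 measured T and NK cell genes higher, IL7R by at least 2-fold and CD28 with 23.5 on cholesterol and a listed 0 on chow. The B and plasma cell list had 3 of 4 measured genes at least 2-fold higher and none lower, with a median of 3.50. CD22, a lectin of B cells, had 33.9 on cholesterol, 31.4 in the transgenic library and 0.0284 on chow. The B cell marker MS4A1 was at or near 0, with 0.0671 on cholesterol and 0 on chow, while JCHAIN, which joins secreted antibody units, had 181 on cholesterol, 42.3 in the transgenic library and 5.52 on chow. The dendritic cell list had 4 of 6 higher, with CD1C, a lipid-presenting molecule, at 91.7 on cholesterol, 68.0 in the transgenic library and 1.12 on chow. The neutrophil genes S100A8, S100A9 and S100A12 had 6.07, 4.83 and 1.42 on cholesterol and were all listed at 0 on chow, with the neutrophil receptor CSF3R at 0.140 on cholesterol and 0.0363 on chow. The 1 measured mast cell gene, GATA2, had 2.88 on cholesterol and 5.54 on chow, and the median of the mast cell list lay above 0 with no filter on low values.

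Endothelial markers had 5 of 15 members at least 2-fold higher and 1 lower, with a median of 0.93 and a summed FPKM of 388 on cholesterol, 438 in the transgenic library and 267 on chow. PLVAP, a protein of fenestrated and newly formed capillaries, had 58.6 FPKM on cholesterol, 42.4 in the transgenic library and 11.4 on chow, whereas the arterial nitric oxide synthase NOS3 had 3.21 on cholesterol and 4.29 on chow. Lymphatic markers had no member past 2-fold among 5. Markers of fibroblasts of the adventitia, the layer outside the media, had 5 of 12 at least 2-fold lower and 2 higher, with a median of -0.73 and a summed FPKM of 2109 on cholesterol, 2586 in the transgenic library and 3006 on chow. PI16 among them was listed at 0 on cholesterol, at 298 in the transgenic library and at 411 on chow, and LUM, lumican, had 370 on cholesterol, 196 in the transgenic library and 85.1 on chow. The part of these cells in the differences above was not tested.

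Nerve, fat, striated muscle and cartilage markers filled the rest. Of 12 Schwann cell and nerve markers 4 were at least 2-fold lower and 1 higher. MBP, a myelin gene, was the higher one, at 34.7 FPKM on cholesterol, 22.4 in the transgenic library and 3.76 on chow. All 5 measured striated muscle genes were at least 2-fold lower, with TNNT2, a troponin, at 56.3 on cholesterol, 133 in the transgenic library and 197 on chow. Of 5 adipocyte markers 1 was higher and 1 lower, with ADIPOQ, adiponectin, at 24.7 on cholesterol, 16.1 in the transgenic library and 6.80 on chow, and of 6 chondrocyte markers LECT1 was lower, at 59.1 on cholesterol and 239.9 on chow, and CYTL1 higher, at 6.62 on cholesterol and 1.70 on chow. Among 3 blood cell genes HBB2, a beta globin, had 106 on cholesterol, 334 in the transgenic library and 37.1 on chow, and the part of residual blood in the other values was not tested.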

How the data were processed

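RNA of the aortic media was pooled from 5 rabbits for each of 3 libraries, and per the labels' protocols it was enriched for polyadenylated RNA and made into TruSeq libraries. The authors deposited FPKM values, a unit named per the file headers. Per the submitters' processing notes, OryCun2.0 was the build. The aligner, the quantifier and the scaling between libraries were not given in the sources used here. All value columns matched a library, and 2 further sheets of the table were not used.

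Differences were taken as log2(FPKM + 1) over rabbit rows that averaged 1 FPKM or more across the 3 libraries. A gene was counted as higher or lower when its difference reached 1 or -1, which is 2-fold. Gene positions are those of the deposited table. Rows were matched to lists by symbol, and symbols without a row were not analysed here. The filter left out 3651 rows. Absolute depth is unknown, so no counting interval could be made. The constant of 1.29 came from 319 low rows, of which 85.9% lay within 1% of a ratio of whole numbers up to 5, against a median of 2.19% at other constants. It is a relative depth only if the FPKM were not scaled between libraries. Scripts used Python 3.11.15, pandas 2.3.3 and numpy 2.4.6, and the calculation of differences and counts was tested on simulated data.

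The comparison, the 55 gene lists and the pairs were chosen with earlier results of these data known. Genes were named by rule: the 12 highest and the 12 lowest differences among genes that have a symbol, average 5 FPKM or more and are above 0 in all libraries, the 8 genes whose share of summed FPKM differed most in each direction, the 3 members of each list with the largest difference, the members 2-fold off against their list and the pairs. Some genes and 1 list that the rule takes are not reported here. Further members were chosen for their known roles after their values were seen.

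The transgenic library shares its diet with the non-transgenic cholesterol library and, in any comparison with chow, the chow library, so its values are given only side by side. The alternatives tried were other pseudocounts, other filters, leaving out genes listed at 0 and other scalings of the libraries.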

Additional observations from a re-analysis of the deposited data

How the results depend on the processing

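The direction of the counts held under all 9 alternatives, with more genes higher than lower on cholesterol in each. A pseudocount of 5 gave 1118 genes higher and 413 lower, and under the other alternatives they lay between 1275 and 2176 higher and between 602 and 1032 lower. The deposited FPKM may or may not be scaled between libraries. Scaling both to the same sum without mitochondrially encoded rows moved the median over all genes to 0.19, against 0.02 as deposited, and the share of higher genes among those at least 2-fold off to 78.3%, against 69.5%. Of 21 lists with a median past 2-fold, 14 stayed past it with a pseudocount of 5, 16 with no filter and 19 of 20 without genes listed at 0. The caveolae and dystrophin list dropped inside 2-fold with a pseudocount of 5 and under both scalings to the same sum. TAGLN was the gene of the 40 named by difference or share that dropped inside 2-fold under both scalings. No paired analysis was possible because each group has 1 library, and for the same reason no replicate could be left out. Depth limits the low genes most, and no interval can be given for them.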
